A study of Ovis aries with 6 samples.

Results

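Cycling endothelial cells of the Hu sheep ovary were taken as droplet barcodes with at least 1000 UMI and at most 10% of UMI in mitochondrial genes that passed 2 further conditions, both set on the measured counts, so the members were chosen by their own expression values. The summed count of PECAM1, CDH5 and KDR had to reach 5 UMI and exceed that of DCN, PTPRC and FST, and at least 3 of 6 cell cycle genes (MKI67, TOP2A, CDK1, CCNB1, UBE2C and BIRC5) had to be detected. A UMI, or unique molecular identifier, tags 1 captured transcript. Of 52290 deposited barcodes, 15226 met the endothelial condition and 1157 of those (7.60%) were members. They were compared with the 11373 endothelial barcodes in which none of the 6 cell cycle genes was detected, and the 2696 with 1 or 2 of the 6 belonged to neither side.

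The series holds 1 droplet library (3′ transcript ends) from the ovary of each of 6 Hu ewes in estrus, Hu sheep being a prolific Chinese breed. The 3 ewes labelled HLS, the high litter size group, had litters of 3 lambs or more, and the 3 labelled LLS had litters of fewer than 2. The sources used here name no treatment for either group. One ovary per ewe was digested, so the cells are those that survive dissociation, and ewe differences cannot be told apart from differences between libraries.

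Blood vessels of the adult ovary grow and regress with every cycle. Endothelial cells of growing capillaries leave quiescence under VEGF, pass the G1 checkpoint through cyclin D and CDK4, copy their DNA in S phase and divide in M phase, while cyclin-dependent kinase inhibitors and flow-induced KLF factors hold resting vessel cells in G0. MKI67 and TOP2A are nuclear proteins of dividing cells, CDK1 with CCNB1 drives entry into mitosis, and UBE2C and BIRC5 act during chromosome separation.

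Some libraries stood apart from the rest. In HLS2 and LLS1, barcodes led by the capillary markers OIT3, APLNR, ESM1 and PLVAP made up 34.2% and 63.9% of the endothelial barcodes outside the members, against 3.36% to 5.57% in the other 4 ewes. These libraries also held 758 of the 1157 members (65.5%). Members that resembled simulated doublets (2 cells in 1 droplet) were unevenly spread, with 59.5% in LLS2, 33.9% in HLS1, 23.6% in HLS3, 19.9% in LLS3, 13.1% in HLS2 and 3.61% in LLS1. Over all ewes they were 13.8% of members and 5.13% of the comparison barcodes. Members also had more UMI, and whether the score marks deep cycling cells as doublets was not tested. With these barcodes removed the share of members in LLS2 went from 2.87% to 1.23%. Pairs of libraries shared 13 to 28 barcode sequences, and no member barcode was shared.

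The rule genes describe how the members were chosen and were not tested. TOP2A was detected in 93.9% of members at 8.83 ± 2.49 UMI per 10000 UMI (SD, n = 6 ewes), and MKI67 in 94.4% at 5.21 ± 1.82. UBE2C stood at 3.59 ± 0.569, BIRC5 at 1.68 ± 0.311, CCNB1 at 1.03 ± 0.133 and CDK1 at 0.791 ± 0.187. HLS1 had the lowest MKI67 level, 1.86 per 10000 UMI, where the highest ewe had 6.61. The endothelial rule genes had similar means on both sides, with exceptions in single ewes. PECAM1, the platelet and endothelial adhesion molecule, stood at 8.20 ± 2.14 in members and 8.90 ± 1.85 in the comparison barcodes. CDH5, the cadherin of endothelial junctions, stood at 3.94 ± 0.960 and 3.86 ± 1.04, and KDR, the main VEGF receptor, at 5.84 ± 2.79 and 7.09 ± 2.12. In HLS3 KDR was at 2.81 in members and 6.09 in the others, and in LLS3 at 5.04 and 7.29. PECAM1 was at 7.37 in members and 11.1 in the others in LLS2, and went the other way in LLS3, at 11.2 and 9.09.

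Genes outside the rule followed the label. An S phase list of 45 genes and a G2 and M phase list of 50 genes, none of them in the rule, were higher in members than in barcodes with fewer rule genes detected, as the plot of phase lists shows. Barcodes just outside the threshold, with 2 of the 6 genes (n = 401), held 16.7 UMI of the S phase list and 22.0 UMI of the G2 and M phase list per 10000 UMI. Those just inside, with 3 (n = 218), held 28.2 and 37.4, those with 5 (n = 295) held 40.5 and 86.8, and those with all 6 (n = 419) held 30.6 and 143, so the S phase list peaked at 5 genes. The endothelial sum stayed between 19.6 and 22.2 per 10000 UMI at every number of genes detected. At the endothelial limit, 8 members had exactly 5 UMI of the 3 genes and 6 barcodes with 4 UMI lay outside.

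**Figure D1:**
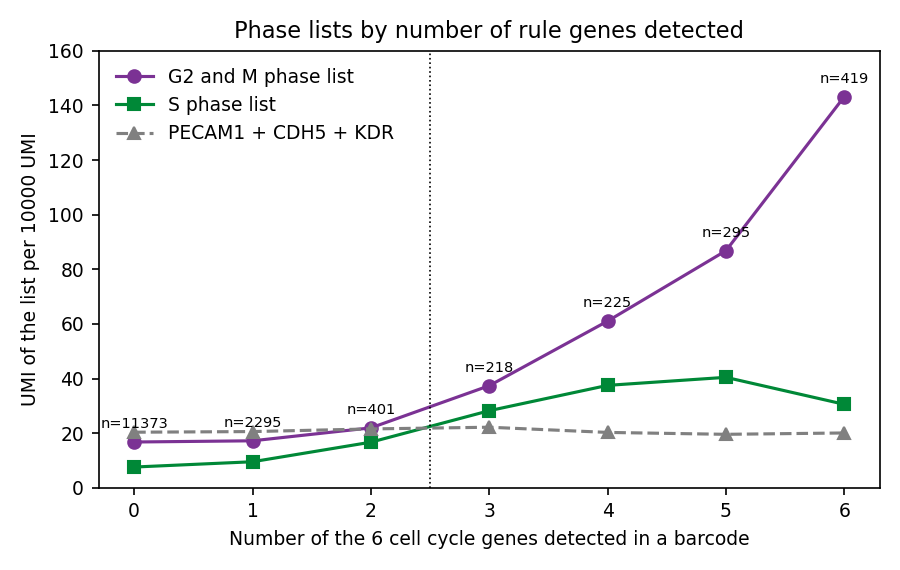
Summed UMI of the S phase list, the G2 and M phase list and the 3 endothelial rule genes per 10000 UMI (y axis) against the number of the 6 cell cycle genes detected (x axis), over the endothelial barcodes of all 6 ewes, with the number of barcodes above each point. The dotted line is the membership threshold; to the right of it the G2 and M phase list climbs to 143 and the S phase list peaks at 40.5, while the endothelial sum stays near 20.4.

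Of the 9 endothelial markers outside the rule that were tested, 7 were lower and none was higher in members, where 21.9% of all genes tested were lower and 18.9% higher (2 of 9 lower among capillary-class barcodes, the class described with the marker classes). CD34 stood at 516.8 ± 191 and 465.1 ± 243 CPM and EGFL7 at 162.3 and 172.9 CPM, and neither passed the edgeR test used for all genes. CPM is the UMI count scaled to the library's total, with library scaling factors (TMM) for single genes and without them for the marker sums. With the 3 rule genes included, the 12 endothelial markers summed to 3879 ± 639 CPM in members and 4915 ± 501 in the comparison barcodes, with PECAM1 the most abundant. The markers of other ovarian cells include DCN, FST and PTPRC, 1 each in the stromal, granulosa and immune lists, which the rule kept below the endothelial sum, so the level of those lists is in part fixed by the choice of barcodes. The 7 stromal markers summed to 267 ± 120 CPM in members and 252 ± 74.1 in the comparison barcodes, with COL1A1 the most abundant, and none of 6 tested passed. With doublet-like barcodes removed 4 of 5 stromal markers tested were lower in members (median log2 change −0.80). A stricter gate asked for an endothelial sum at least 5 times that of DCN, PTPRC, FST, RGS5, INHA and CYP17A1. Under that gate 4 of 5 stromal markers were lower (−0.75). The 8 granulosa markers summed to 52.2 ± 40.1 and 56.2 ± 28.0 CPM, with CYP19 at 0 UMI in members, the 4 theca markers to 92.9 ± 53.2 and 94.1 ± 41.4, and the 8 perivascular markers to 94.0 ± 33.3 and 82.9 ± 14.3. Immune markers summed to 66.3 ± 45.5 CPM in members, from 17.8 in LLS1 to 132 in LLS2, and to 192 ± 193 in the comparison barcodes. B lineage, epithelial and Schwann markers each summed to 6.71 CPM or less in the members of every ewe, and the haemoglobin gene HBB was at 0 UMI.

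Members carried more RNA per barcode. The median was 18330 UMI in members and 9236 in the comparison barcodes, and members were deeper in all 6 ewes, by 1.74 times in LLS1 to 2.64 times in HLS3. When every barcode was thinned to 5000 UMI, members still held more genes, 2228 ± 96.1 against 2075 ± 108, a difference of 153 ± 30.5 in the same direction in 6 of 6 ewes (two-sided exact test over sign changes of the ewe differences, p = 0.03125, its lower limit with 6 ewes). Members were chosen before thinning, and doublet-like barcodes were kept, 13.8% of members and 5.13% of the others. The thinned means were 2235 and 2121 genes in LLS1, with 3.61% doublet-like members. They were 2314 and 2131 in LLS2, with 59.5%, and the part of doublets was not tested. Without thinning the medians by ewe were 4380 to 5142 genes in members and 2417 to 3462 in the others. The mitochondrial share did not pass the same exact test, at 4.86 ± 1.31% in members and 4.97 ± 0.982% in the others, higher in 3 of 6 ewes. A barcode with more UMI also has more chance to show 3 of 6 genes, so depth and membership move together, and their separate parts were not tested.

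The share of endothelial barcodes that were members differed more between ewes than between groups. It was 3.32% in HLS1, 7.56% in HLS2, 7.68% in HLS3, 12.2% in LLS1, 2.87% in LLS2 and 6.40% in LLS3. LLS1 was the highest and LLS2 the lowest, so both ends of the range lay in LLS and the groups overlapped. The exact 95% binomial intervals, which cover counting error only, ran from 11.2% to 13.3% in LLS1 and from 2.08% to 3.87% in LLS2. The HLS mean was 6.19 ± 2.48% and the LLS mean 7.16 ± 4.71% (n = 3 each), a difference of −0.973 percentage points (two-sided exact permutation test, p = 1.0, where 3 against 3 cannot go below 0.1). The sign depended on single ewes: HLS was higher by 1.55 points without LLS1, by 0.458 points without HLS1 and by 0.867 points without both HLS2 and LLS1. Thinned to 5000 UMI, with membership called again and an endothelial minimum of 2 UMI, the difference was −1.48 points (exact permutation p = 0.5).

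**Figure D2:**
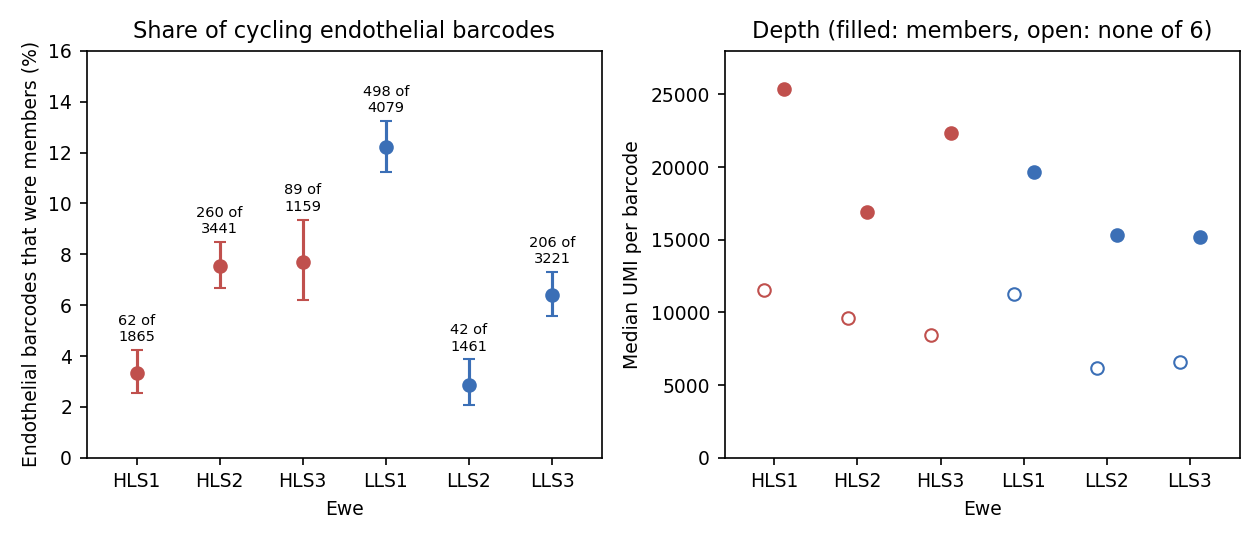
Left, percent of endothelial barcodes that were members in each ewe (y axis), with exact 95% binomial intervals as bars and the numbers of barcodes above; right, median UMI per barcode in members (filled) and in endothelial barcodes with none of the 6 genes (open). LLS1 at 12.2% and LLS2 at 2.87% bracket the HLS ewes (red), and in every ewe the filled point is above the open one.

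The phase lists give levels, not a phase call. With each barcode thinned to 5000 UMI, the median member held 30.5 UMI of the G2 and M phase list in HLS1, 51.5 in HLS2, 37.0 in HLS3, 40.5 in LLS1, 46.0 in LLS2 and 55.0 in LLS3. The comparison barcodes held 7 to 9, so the ewe medians of the 2 sides did not overlap. For the S phase list the medians were 11 to 16 UMI in members and 3 to 4 in the others. The G2 and M count was above the S count in 72.4% (HLS3) to 85.3% (LLS3) of members. The comparison barcodes showed the same order, 7 to 9 against 3 to 4 UMI, and the lists hold 50 and 45 genes, so no share of members in a phase can be read from it. Within a ewe the counts of the lists were unrelated or weakly opposed across members, with Spearman's rho from 0.00 in HLS1 to −0.40 in LLS2. The 6 rule genes are themselves mostly G2 and M phase genes, so the balance is in part set by the rule.

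Against all other endothelial barcodes of the same ewe, 1 marker class had a higher share of members in every ewe. Each endothelial barcode was placed in a class when it held at least 3 UMI of that class's markers and more than of any other class, and none of these markers belongs to the rule. In the capillary class, marked by OIT3, by the apelin receptor APLNR, by ESM1 (endocan, a proteoglycan of growing vessels) and by PLVAP (the diaphragm protein of fenestrated capillaries), 20.1 ± 10.002% of barcodes were members, against 4.52 ± 1.68% of the other endothelial barcodes of the same ewes (n = 6). By ewe the shares inside and outside the class were 22.8% and 2.46% in HLS1, 11.4% and 5.42% in HLS2, 29.4% and 6.68% in HLS3, 15.8% and 4.93% in LLS1, 8.14% and 2.55% in LLS2, and 33.1% and 5.05% in LLS3. The class was higher in 6 of 6 ewes, by 15.6 ± 9.41 points (exact test over sign changes, p = 0.03125, and 0.0625 after Benjamini-Hochberg adjustment over 6 classes, so it does not pass 0.05).

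This class held 662 of the 1157 members (57.2%), but 231 of 659 without LLS1. It is also where the libraries that stood apart weigh most, since HLS2 and LLS1 supplied 3948 of its 4318 barcodes and 571 of its 662 members. In the other 4 ewes the class was small, with 370 barcodes and 91 members, and the shares there were 23.4% inside and 4.19% outside, in 4 of 4 ewes (exact p = 0.125, the smallest that 4 ewes allow). The class median depth was 1.23 times that of the other barcodes. At 5000 UMI the shares were 15.0% and 4.21% over the 5 ewes with enough barcodes, higher in the class in 5 of 5. Among barcodes of 5000 to 20000 UMI the shares were 12.2% and 3.78%, a difference of 8.396 points over the 5 ewes other than HLS3. In the same 5 ewes the difference over all depths was 14.2 points. Within the depth limits HLS1 had 4.0% in the class. With barcodes resembling doublets removed the shares were 17.2% and 3.19%, also higher in 5 of 5.

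Classes led by venous markers and by CA4 held a lower share of members than all other endothelial barcodes. Those others include the capillary class, so the class differences are not independent of each other. In the venous class, marked by the leukocyte adhesion receptors SELP and SELE and the chemokine scavenger ACKR1, 2.65 ± 2.25% were members, against 6.95 ± 3.45% of the others, lower in 6 of 6 ewes (exact p = 0.03125, adjusted 0.0625). Thinned to 5000 UMI the venous difference was −2.42 points in place of −4.30 and lower in 4 of 5 ewes, HLS3 having 8.20% against 5.68% (exact p = 0.188), and with at least 5 UMI for a class HLS3 was also higher. In the class marked by carbonic anhydrase CA4 and by PPP1R1B the shares were 3.24 ± 1.47% and 7.67 ± 3.30%, lower in 6 of 6 ewes (exact p = 0.03125, adjusted 0.0625). Arterial barcodes reached 50 in only 3 ewes, with 3.27 ± 0.134% members against 8.88 ± 3.11% (3 of 3 lower, exact p = 0.25). Of the 3 ewes with fewer arterial barcodes, HLS1 had 5.0% against 3.31% and LLS2 5.26% against 2.81%. Venous barcodes numbered 978 with 23 members, and LLS2 had 0 members among 160. Outside the capillary class, these classes included, 4.52 ± 1.68% of barcodes were members. The venous and CA4 shares were below that of their ewe in every ewe, but by less than against the others. In LLS1 venous barcodes had 4.17%, against 12.6% of the others and 4.93% outside the capillary class. In HLS3 the values were 6.33%, 7.78% and 6.68%, and none of this was tested.

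Against all other endothelial barcodes, the lymphatic and tip classes did not go the same way in every ewe. Lymphatic barcodes, marked by MMRN1, the lymphatic master regulator PROX1, LYVE1 and RELN, were members in 9.10 ± 4.95% against 6.12 ± 3.82% of the others. They were higher in 5 of 6 ewes, with LLS1 the exception at 6.72% against 12.8% (exact p = 0.281, adjusted 0.338). The others include the capillary class, which held 86.5% of the members of LLS1. Outside the capillary class, lymphatic barcodes included, 4.93% of LLS1 barcodes and 2.46% of HLS1 barcodes were members. The lymphatic share was above that value in every ewe, at 6.72% in LLS1 and 4.34% in HLS1, and this was not tested. The difference of 2.97 points was 4.78 without LLS1 (5 of 5 ewes higher, exact p = 0.0625, the smallest that 5 ewes allow), 1.66 without HLS3, 1.72 without LLS3, and 0.83 with 3 of 6 ewes higher at 5000 UMI. Lymphatic barcodes were 208 of all members (18.0%). Among the members of a ewe they outnumbered the capillary class in HLS1 (37.1% against 29.0%), HLS3 (28.1% and 16.9%), LLS2 (47.6% and 16.7%) and LLS3 (29.1% and 24.8%), but not in HLS2 (21.2% and 53.8%) or LLS1 (5.02% and 86.5%). In HLS3 the CA4 class led with 33.7%. The tip class, marked by APLN, ANGPT2, PGF and DLL4, held members at 6.12 ± 3.62% against 6.67 ± 3.41%, higher in 3 of 6 ewes (exact p = 0.438). Thinned to 5000 UMI the difference was −1.42 points, lower in 5 of 6 ewes (exact p = 0.0625). The tip difference of −0.551 points had an SD of 1.71 points over the ewes, and a p that misses the threshold does not show equality.

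**Figure D3:**
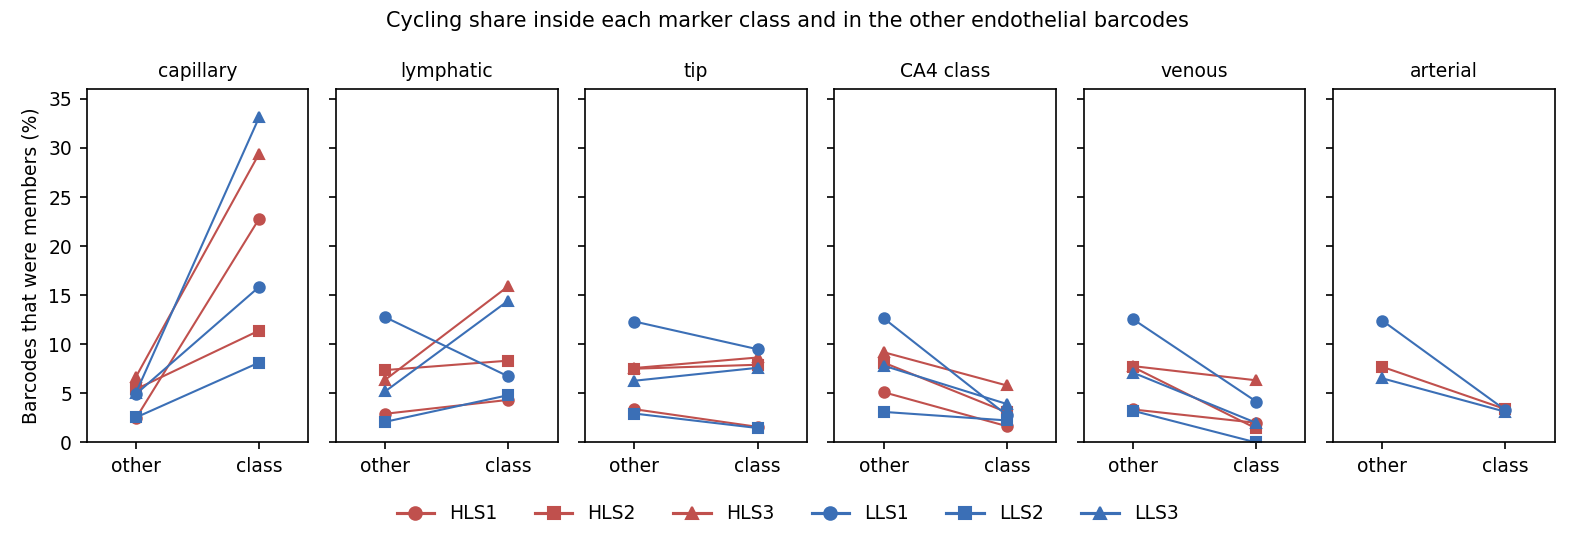
Percent of barcodes that were members (y axis) in each marker class and in the other endothelial barcodes of the same ewe, with 1 line per ewe (red HLS, blue LLS) and ewes with at least 50 barcodes of the class. All 6 lines rise in the capillary class, all 6 fall in the CA4 and venous classes, and the lymphatic and tip lines go both ways.

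Across all genes, members were then compared with the comparison barcodes of the same ewe. UMI were summed per ewe and state (748680 to 10942314 UMI in the member sums) and tested with edgeR's quasi-likelihood test with the ewe as a block and Benjamini-Hochberg adjustment. All adjusted p-values below come from this test. Levels are CPM with library scaling factors (TMM). The sums of cell type markers and the comparisons of HLS with LLS are in CPM without them. Of 13396 genes tested, 2538 (18.9%) were higher and 2940 (21.9%) lower in members at an adjusted p under 0.05, together 40.9%, and the median log2 change was −0.07. In all 6 ewes 17.6% of genes were higher and 22.9% lower. Without the scaling factors 3079 were higher and 2275 lower (40.0% called, 23.0% higher and 17.0% lower), so 57.5% of the calls were rises in place of 46.3%, and the median moved to 0.01. With doublet-like barcodes removed 36.8% of 13055 genes were called, 16.6% higher and 20.2% lower. Rises were named by a fixed rule: adjusted p under 0.05, same direction in every ewe, mean of at least 20 CPM and outside the phase lists. The 10 largest that met this rule were all known cell cycle genes and follow from how members were chosen. They were PIMREG, SHCBP1, KIF4A, BUB1B, PCLAF, DEPDC1, KIF22, CENPW, CCNA2 and KIF20A, with log2 changes from 6.42 to 8.30. In the same way 44 of 45 S phase genes and 49 of 50 G2 and M phase genes were higher in 6 of 6 ewes, with median log2 changes of 2.58 and 4.73, and GINS2 and TUBB4B were the exceptions at 0.27 and 0.09.

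In the counts that follow, 18.9% higher and 21.9% lower are the shares over all genes. Because 57.2% of the pooled members were of the capillary class, mostly from LLS1 and HLS2, the same fit was also made inside that class (5 ewes, 7703 genes, of which 12.7% were higher and 7.62% lower), and its counts are given beside those of the lists other than the phase lists. The capillary-class fit was added after seeing the data and left out LLS2, which had 7 such members. Larger counts that 1 ewe moved by more than 1.5 times are given with that ewe left out, and counts of 1 or 2 genes often turned on 1 ewe. Without the ewe as a block, fewer genes passed in many lists: none of 14 basement membrane genes rose, and 1 of 80 ribosomal protein, 1 of 11 receptor and 2 of 10 arterial genes fell. No list's median changed sign without the scaling factors, and the counts that follow are with them.

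Genes that drive growth and entry into the cell cycle were mostly higher. Of 15 tested, 10 rose and 1 fell (median 1.07). FOXM1, MYBL2 and the E2F genes are expressed with the rule genes, so their values follow in part from how members were chosen and are a description. FOXM1, the transcription factor of the G2 and M programme, was at 26.2 to 34.2 CPM in the members of the 6 ewes and at 0 to 0.236 CPM in the others. MYBL2 rose by 5.08 ± 0.15 and E2F1 by 4.30 ± 0.31 on the log2 scale (± SE). CDK4, the partner of cyclin D, was at 150, 105 and 129 CPM in members of HLS1 to HLS3 and 103, 110 and 106 in LLS1 to LLS3. The comparison barcodes had 66.1, 55.3 and 43.7, and 59.6, 35.4 and 40.5, so no comparison value reached a member value. The log2 change was 1.23 ± 0.12 (adjusted p = 3.43e-05).

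Cyclin D1 and MYC did not follow CDK4. CCND1 rose by 1.07 ± 0.38 (adjusted p = 0.0447), but in 4 of 6 ewes: in HLS2 it was 119 CPM in members and 151 in the others, in LLS1 162 and 210, and in HLS3 359 and 78.6. The ewes that went down were those rich in the capillary class, and the call was lost without HLS1, HLS3, LLS2 or LLS3. MYC, the growth transcription factor, was lower in all 6 ewes, at 126.9 ± 24.6 CPM in members and 266.2 ± 68.3 in the others, with no overlap (log2 change −1.03 ± 0.15, adjusted p = 0.000498). Inside the capillary class the G1 list held 5 rises and 3 falls among 12 tested, with a median of 0.15, and among barcodes of 5000 to 20000 UMI 5 rises and 3 falls among 13.

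Most DNA precursor and chromatin genes tested rose. Of 13 nucleotide synthesis genes 10 rose and 1 fell. The fall, UMPS at −0.40, was not called when any 1 ewe but LLS1 was left out, without the scaling factors or in the capillary class, where 6 of 12 rose. DUT, which removes dUTP, went from 105.1 ± 51.4 to 988.4 ± 204 CPM, and thymidine kinase TK1 rose by 4.84 ± 0.30 on the log2 scale. Of 14 chromatin and nuclear structure genes 13 rose and none fell at the threshold, with HMGA1 not passing at −0.27, and the median was 1.53. The DNA-bending protein HMGB1 was at 2581, 2345 and 2550 CPM in HLS members and 2191, 2223 and 2531 in LLS members, against 589 to 820 in the others. LMNB1 (lamin B1), STMN1 (a microtubule destabiliser) and the maintenance methyltransferase DNMT1 rose by 3.93, 3.19 and 1.94. Within the capillary class 12 of 14 rose with a median of 1.5. Many of these genes are expressed with the rule genes, so their counts describe the members.

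Of 12 DNA repair and p53 target genes 6 rose and 3 fell, the falls being near the 21.9% of all genes. BRCA1, FANCI, FANCD2, CHEK1 and BRCA2, which act on replicating DNA, rose by 5.72, 4.39, 4.33, 2.60 and 1.82 on the log2 scale, and the apoptosis gene BAX by 0.41. The genes that fell were CDKN1A, GADD45A (a stress sensor, −1.17 ± 0.13) and the death receptor FAS (−0.49 ± 0.17). Without LLS1 5 genes fell. In the capillary class 5 of 11 rose and 2 fell. The call of FAS was lost without HLS1, HLS3, LLS2 or LLS3, and that of BAX without LLS3.

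Most genes linked to vascular quiescence fell. Of 16 genes tested 11 fell and 1 rose (median −0.84). CDKN1A (p21), which blocks cyclin-dependent kinases, was at 331, 151 and 151 CPM in members of HLS1 to HLS3 and 205, 172 and 204 in LLS1 to LLS3. In the comparison barcodes it was at 796, 303 and 598, and at 278, 711 and 661. It was lower in each ewe, although the member value of HLS1 exceeded the comparison values of HLS2 and LLS1 (log2 change −1.39 ± 0.19, adjusted p = 0.000379). CDKN1C (p57) fell by 1.30 ± 0.16, from 61.6 ± 25.3 to 22.9 ± 6.79 CPM. CDKN2C (p18), an inhibitor of CDK4 and CDK6, went the other way in 6 of 6 ewes, from 34.65 ± 14.0 to 89.5 ± 10.3 CPM with no overlap (1.45 ± 0.17, adjusted p = 9.68e-05).

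Anti-proliferative and flow-responsive genes also fell in the member sums. BTG1 was at 353 to 600 CPM in members and 780 to 1360 in the others, and BTG2 fell by 1.25 ± 0.18 on the log2 scale. The flow-induced factors KLF2 and KLF4 fell by 0.54 ± 0.10 and 1.24 ± 0.13, and thrombomodulin (THBD), an anticoagulant receptor under their control, by 1.08 ± 0.11. TXNIP and FOXO1, which restrain glucose uptake and growth, fell by 1.0 ± 0.16 and 0.83 ± 0.13. The endothelial nitric oxide synthase NOS3 did not pass (0.51 ± 0.20, adjusted p = 0.0672), nor did CDKN1B (p27) at −0.14 ± 0.09. Without LLS1 3 genes of the list rose, and without HLS2 2 did. Among capillary-class barcodes 7 of 15 fell and 1 rose, with a median of −0.46.

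**Figure D4:**
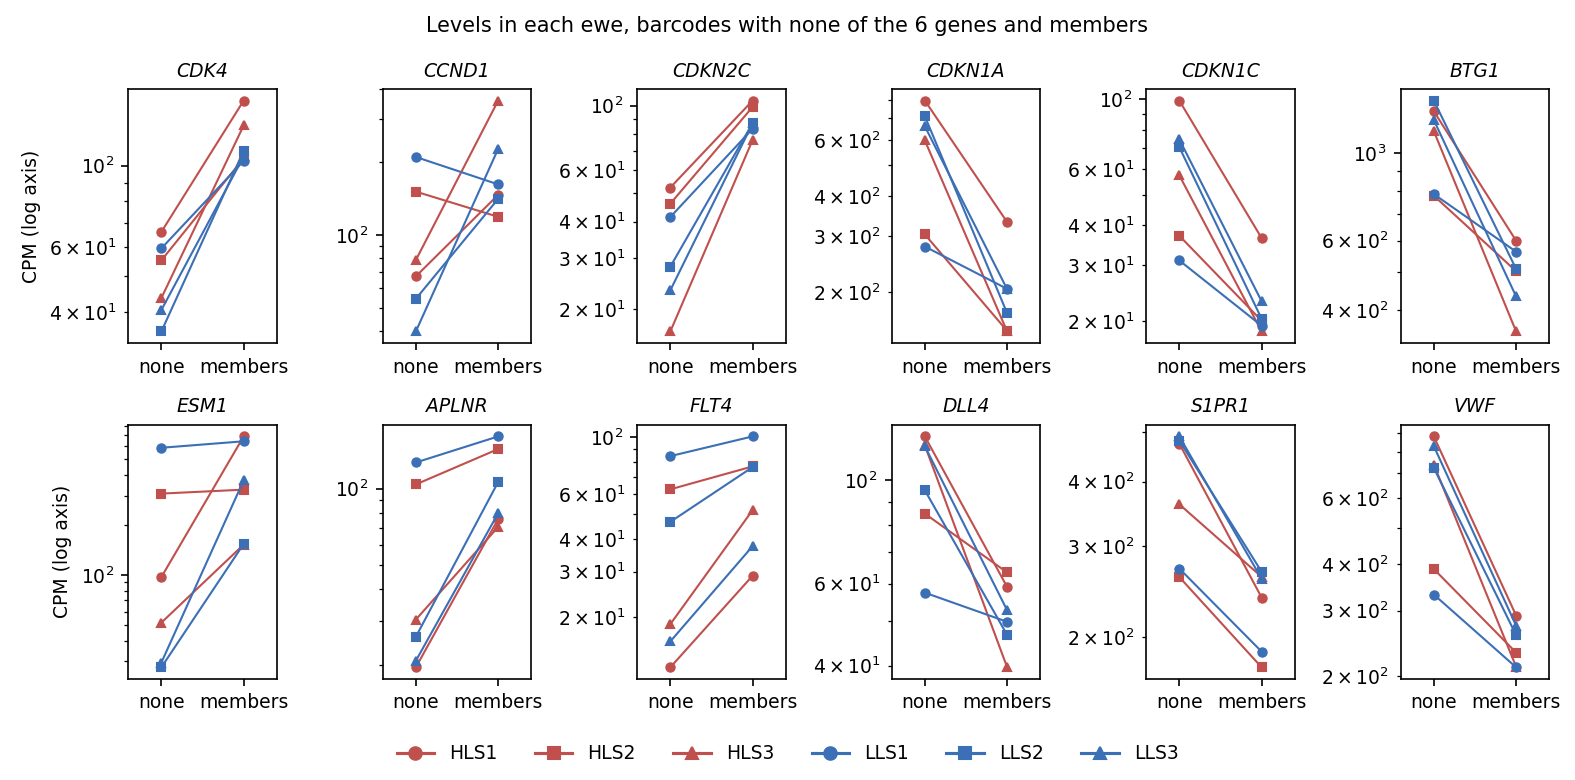
CPM on a log axis of 12 genes in endothelial barcodes with none of the 6 genes and in members, with 1 line per ewe (red HLS, blue LLS). CDK4 and CDKN2C rise and CDKN1A, CDKN1C, BTG1, S1PR1 and VWF fall in all 6 ewes, while CCND1 falls in HLS2 and LLS1 and ESM1 is nearly flat there.

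Immediate early genes, which respond within minutes to stimuli and to tissue digestion, were lower. Of 13 tested 12 fell and none rose (median −0.78), and NR4A1 did not pass at −0.34. FOS was at 1677 ± 515 CPM in members and 2854 ± 573 in the others, lower in 5 of 6 ewes, JUN at 1860 ± 448 and 2963 ± 352, and IER3 fell by 1.53 ± 0.23. By ewe the list median ran from −0.15 in LLS1 to −1.26 in HLS3. Inside the capillary class 4 of 12 fell, with a median of −0.28.

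Capillary markers did not move as 1 group. ESM1, which is also a tip cell gene, was at 688, 328 and 153 CPM in HLS members and 643, 154 and 373 in LLS members. In the comparison barcodes it was at 96.9, 310 and 51.4, and at 587, 27.6 and 29.5. It was higher in 6 of 6 ewes, yet nearly level in HLS2 and LLS1 (log2 change 1.77 ± 0.46, adjusted p = 0.0122). In the 10-gene capillary list, which does not hold ESM1, 2 rose, 5 fell and 3 did not pass. APLNR rose by 1.28 ± 0.24 and OIT3 by 1.54 ± 0.39, while PLVAP did not pass at −0.16 ± 0.20. PPP1R1B fell by 2.66 ± 0.19, CA4 by 1.27 ± 0.20, SPARCL1 by 1.11 ± 0.24, BTNL9 by 0.76 ± 0.21 and RGCC by 0.37 ± 0.11. Without LLS3 3 of the 10 fell, BTNL9 (also lost without HLS1) and RGCC (also without HLS2 or HLS3) no longer passing, and in the capillary class 2 of 8 fell and none rose.

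Of 13 tip cell genes tested 7 fell and 3 rose, ESM1 among them (median −0.47), the rises being near the 18.9% of all genes. APLN, the ligand of APLNR, rose by 0.88 ± 0.26 (adjusted p = 0.0213), at 36.5 CPM in LLS1 and 186 in LLS3, and the basement membrane gene NID2 by 0.66 ± 0.18. The Notch ligand DLL4 was at 39.7 to 63.4 CPM in members and 57.4 to 124 in the others (−0.88 ± 0.17, adjusted p = 0.00224), and ANGPT2, which loosens vessels by opposing TEK signalling, fell by 0.74 ± 0.16. PGF, INSR and ADAMTS4 fell by 1.69, 1.29 and 1.26, and CXCR4 and ADM by 0.79 and 0.47. The call of APLN was lost without HLS3 or LLS3 and that of CXCR4 without HLS3, LLS1 or LLS2. Restricted to the capillary class, 2 of 11 fell and none rose.

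Venous and arterial genes fell or did not pass, with 1 exception. Of 9 venous genes 6 fell and 1 rose. VWF, the clotting glycoprotein stored in endothelial granules, was at 291, 231 and 212 CPM in HLS members and 211, 258 and 273 in LLS members, against 331 to 879 in the others, with no overlap (−1.31 ± 0.16, adjusted p = 0.000145). SELP and ACKR1 fell by 1.54 ± 0.20 and 1.62 ± 0.35, ICAM1 by 1.11 ± 0.14, and the low SELE rose by 1.07 ± 0.38, from 1.13 to 2.60 CPM. Of 10 arterial genes 6 fell and none rose (BMX, CXCL12, GJA4, SOX17, JAG1 and EFNB2), but 3 fell without HLS2 and 3 without LLS1. SELE lost its call without HLS2, HLS3, LLS2 or LLS3, no venous gene rose without LLS1 or at 5000 to 20000 UMI, and none rose with doublet-like barcodes removed. Within the capillary class 4 of 5 venous and 3 of 5 arterial genes tested also fell.

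Lymphatic genes did not move as 1 group. Of 7 tested 2 rose and 2 fell (median 0.12). FLT4, the VEGFC receptor found on lymphatic and on growing blood vessels, rose in 6 of 6 ewes by 0.81 ± 0.17 (adjusted p = 0.00396), and the low neuropeptide gene NTS by 2.14 ± 0.71, in 4 of 6 ewes and not without HLS3, LLS2 or LLS3. PROX1 fell by 1.31 ± 0.20 and RELN by 1.17 ± 0.38 (not called when any 1 ewe but HLS3 was left out), while LYVE1 stood at 317.1 ± 138 and 304.7 ± 190 CPM. In the capillary class none of 3 tested passed (median −0.25). Without HLS3 1 rose and 3 fell, and without LLS2 or LLS3 1 rose and 1 fell. The list median was 1.43 in HLS3, 0.43 in LLS3 and below 0 in the other 4 ewes.

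Signal receptor and Notch genes fell or did not pass. Of 11 receptors of the VEGF, TIE, BMP and related pathways none rose, 5 fell and 6 did not pass (median −0.26, and −0.17 without HLS1), and without the scaling factors 1 rose and 3 fell. Without HLS1, HLS3 or LLS3 3 fell, FLT1 losing its call each time and TEK without HLS1, HLS2, LLS2 or LLS3. The sphingosine receptor S1PR1, which stabilises vessels, fell by 0.72 ± 0.09 (231.3 ± 40.5 against 389.7 ± 106 CPM, adjusted p = 0.000252), ROBO4 by 0.47, the VEGF decoy receptor FLT1 by 0.47 ± 0.15, TIE1 by 0.40 and TEK by 0.32 ± 0.10. NRP1, NRP2, ENG, ACVRL1, BMPR2 and PLXND1 did not pass. Of 11 Notch pathway genes none rose and 6 fell (median −0.47): DLL4, JAG2, HES1, NOTCH1, DLL1 and JAG1. HES1, a Notch target, was at 162.2 ± 36.1 and 241.7 ± 65.6 CPM, and the target genes NRARP and HEY2 did not pass at −0.07 and −0.01. Inside the capillary class 1 of 11 receptors and 2 of 9 Notch genes fell.

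Junction and basement membrane genes moved in opposite directions. Of 10 junction genes 7 fell and 1 rose. CLDN5, the tight junction claudin of endothelium, fell by 0.81 ± 0.09, EMCN by 0.72 ± 0.08 and β-catenin (CTNNB1) by 0.51 ± 0.08, while JUP rose by 0.43 ± 0.13, a call lost without LLS3. In the capillary class 2 of 8 fell and none rose. Of 14 basement membrane genes 9 rose and none fell (median 0.48), but the rises were 1 without LLS3, 4 without HLS1 and 4 without LLS2. Here the ewes differed. COL4A1, the main type IV collagen chain, was at 2733 CPM in HLS1 members and 1318 in the others, at 2595 and 1947 in HLS3, 4397 and 1722 in LLS2, and 3733 and 1656 in LLS3. In the ewes rich in capillary-class cells it was level, at 4336 and 4419 in HLS2 and 6185 and 6427 in LLS1. The log2 change was 0.65 ± 0.19 (adjusted p = 0.0197), a call lost without HLS1, LLS2 or LLS3. NID1 rose by 1.10 ± 0.25 in 6 of 6 ewes. In the capillary-class fit none of the 14 rose, 2 fell and the median was −0.18.

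Some energy metabolism genes were higher. Of 16 glycolysis genes 9 rose and 3 fell (median 0.51), and in the capillary class 2 of 14 rose and 2 fell (median 0.24). PFKP, a phosphofructokinase at the rate-setting step, was at 25.1 to 60.0 CPM in members and 9.87 to 18.5 in the others (1.51 ± 0.17, adjusted p = 7.86e-05), PGK1 rose by 0.83, ENO1 by 0.76 and PKM by 0.59, and GAPDH by 0.69 in 4 of 6 ewes, not called without LLS3. The glucose transporter SLC2A1 fell by 0.93 ± 0.19, and the hexokinases HK2 and HK1 by 0.70 and 0.49. Of 59 nuclear genes of oxidative phosphorylation 47 rose and 1 fell (UQCRH, −0.31), with a median of 0.49 and the largest rises at 0.88 (NDUFA12, NDUFA8 and ATP5MC1). The list median was 0.16 in HLS2 and 0.09 in LLS1 and 0.57 to 0.72 in the other ewes, and inside the capillary class 6 of 59 rose, with a median of 0.19.

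Fewer than 1 in 2 ribosomal protein genes passed. Of 80 tested 35 fell, 44 did not pass and 1 rose (RPL26L1, a homologue of RPL26 with which it can share reads, 0.97), with a median of −0.17 against −0.07 over all genes. The median in HLS3 was 0.0565. Without the scaling factors 28 fell, 5 rose and the median was −0.08, without LLS2 22 and without HLS1 23 fell, without HLS2 or LLS1 3 rose, and in the capillary class 13 fell and 1 rose. Nucleolar NCL and NPM1, needed to assemble ribosomes, rose by 0.36 ± 0.09 and 0.33 ± 0.12, NPM1 losing its call without HLS3, LLS2 or LLS3.

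Interferon, hypoxia and hormone receptor genes were lower or did not pass. Of 11 interferon-induced genes 9 fell and none rose (median −0.64). The list median was lowest in LLS2 (−1.14) and HLS3 (−0.98). Comparison barcodes of these ewes also had the highest immune marker sums, 328 and 527 CPM without scaling factors, against 132 and 64.7 in members. What immune RNA contributed was not tested. Without the scaling factors 6 fell, without HLS3 6, and without LLS2 7 with a median of −0.42. The list had ISG15 at 5.94 to 33.0 CPM in members and 17.1 to 91.3 in the others (−1.73 ± 0.27, adjusted p = 0.00084), IRF7 at −1.65 and B2M at −0.36 ± 0.08. Of 10 hypoxia genes 5 fell and none rose (3 fell without HLS1 or without LLS2), among those that fell NDRG1 (−1.36 ± 0.22), VEGFA (−0.95 ± 0.16) and the endothelial hypoxia factor EPAS1 (−0.68 ± 0.14). Of 6 hormone and growth factor receptors tested 4 fell: IGF1R, the receptor of IGF1, from 87.6 ± 45.2 to 26.7 ± 15.7 CPM (−1.63 ± 0.18), the progesterone receptor PGR from 18.6 ± 10.7 to 5.65 ± 3.01, the insulin receptor INSR and the glucocorticoid receptor NR3C1. Restricted to the capillary class, 3 of 9 interferon and 3 of 7 hypoxia genes fell and none of the 3 receptors tested passed.

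**Figure D5:**
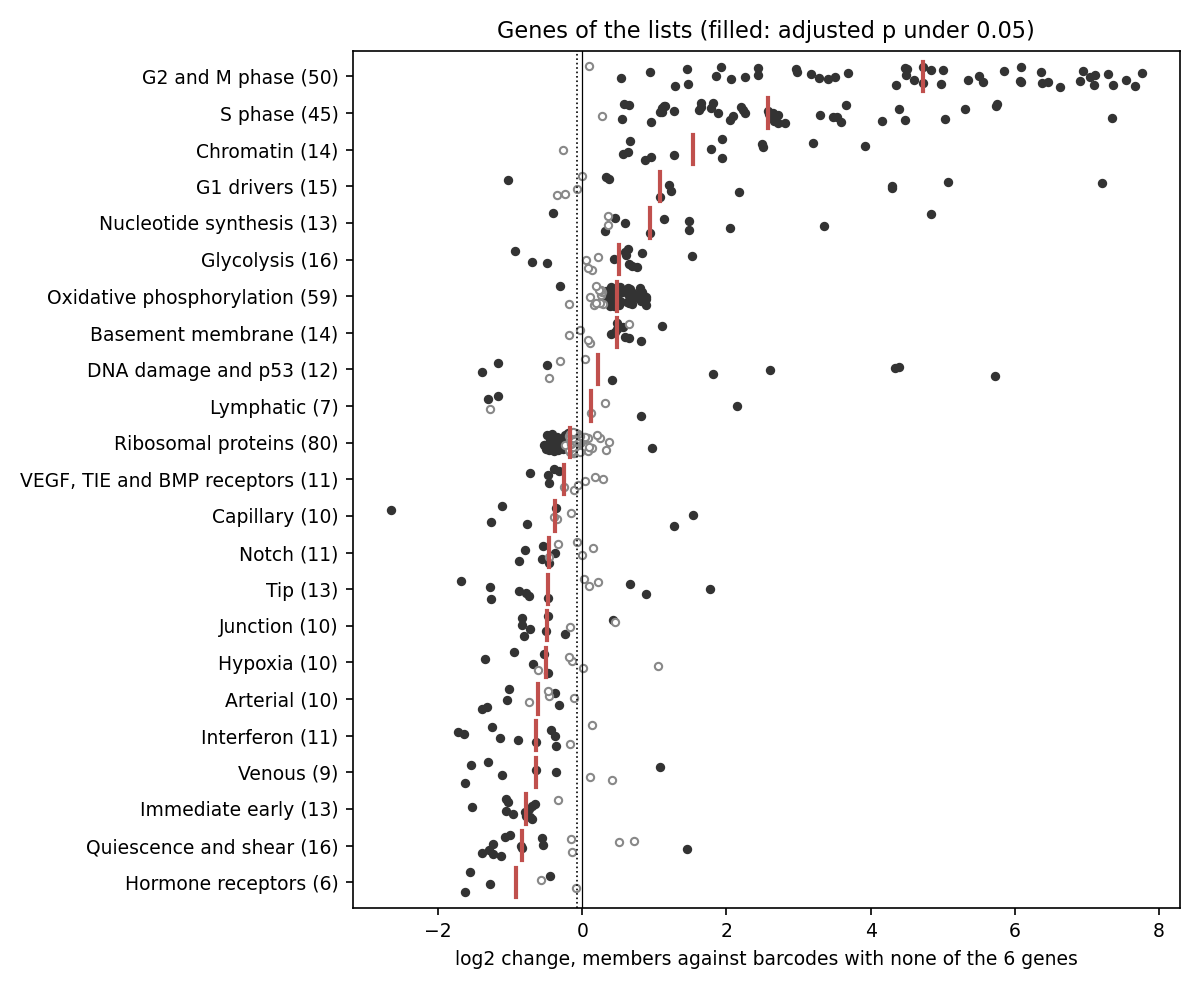
Log2 change between members and endothelial barcodes with none of the 6 genes (x axis) for each tested gene of 23 lists (y axis, number of genes in parentheses), filled where the adjusted p was under 0.05, with the list median in red and the median of all genes, −0.07, as a dotted line. The medians of the phase and chromatin lists lie right of 0, that of oxidative phosphorylation at 0.49, and those of the immediate early, quiescence and interferon lists left of 0, with single genes on the other side, such as CDKN2C at 1.45.

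The largest falls named by a fixed rule (adjusted p under 0.05, same direction in every ewe, mean of at least 20 CPM, outside the phase lists) were PLSCR5, CFD, SCN3B, C1QB, PPP1R1B, ZBTB16, SLCO2B1, IL6, SNED1 and TEC, with log2 changes from −3.16 to −2.08. PLSCR5 was at 1.19 to 18.5 CPM in members and 10.6 to 149 in the others. ZBTB16, a zinc finger factor induced by glucocorticoids, was at 5.27 to 67.7 and 28.5 to 311, and the cytokine IL6 at 4.78 to 22.5 and 16.7 to 101. Member and comparison values overlapped across ewes for each of these, while in every ewe the member value was the lower. C1QB and CFD are complement genes, and C1QB is also a macrophage marker. With the immune markers, of which 3 of 5 tested fell (C1QB, C1QA and CD68), the comparison barcodes of HLS3 stood out at 146 CPM of C1QB, where members of the same ewe had 11.02. What RNA from macrophages contributed was not tested.

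Within the members, HLS and LLS ewes were compared across 11033 genes. None passed an adjusted p of 0.05 with edgeR's quasi-likelihood test. At an unadjusted p under 0.05, 192 genes were higher and 118 lower in HLS. These counts depended on scaling and on single ewes. They were 109 and 158 without the scaling factors, 111 and 114 without HLS1, and 530 and 411 without HLS2. DESeq2 also called none (166 higher and 85 lower at an unadjusted p under 0.05). Of all genes tested 8.45% did not overlap between the groups of 3. On simulated data of this design 11.2% of 2-fold and 73.1% of 4-fold changes were recovered among 10753 genes, so 2-fold changes would mostly be missed. The cell cycle lists had median log2 differences of −0.02 for S phase and −0.10 for G2 and M phase.

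The genes with the smallest p are given as values that did not pass. EPB41L3, a membrane skeleton protein, was at 4.64, 4.85 and 5.92 CPM in HLS members and 0.274, 0 and 0.861 in LLS members. INHA, the inhibin alpha subunit of granulosa cells, was at 7.74, 5.27 and 6.83 CPM against 0.640, 2.67 and 0, from 25 UMI or fewer in each ewe. The 8 granulosa markers summed to 41.3, 57.5 and 125 CPM in members of HLS1 to HLS3. In LLS1 to LLS3 they summed to 10.7, 56.1 and 22.7, so these sums overlapped. What granulosa RNA contributed to INHA was not tested. PARP14 was at 33.5, 41.5 and 30.5 CPM against 66.8, 65.4 and 88.9, and the low protease gene CAPN14 at 0, 0.632 and 0 against 7.95, 4.01 and 6.02. The unnamed loci LOC101111694 (higher in HLS) and LOC101120367 (lower) complete the set. The groups of 3 do not overlap in any of these genes, which were picked for their small p.

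Whether the step from the comparison barcodes to members differed between the groups was tested as an interaction over 13396 genes. None passed with edgeR (DESeq2 was not run on it), with 173 genes higher and 47 lower in HLS at an unadjusted p under 0.05. The unadjusted counts were 227 and 178 without LLS1, and 254 and 151 without HLS2. Of the named genes with the smallest p, PRKAR2B was at 20.1, 35.6 and 49.6 CPM in HLS members and 8.48, 21.6 and 35.0 in the comparison barcodes of the same ewes. In LLS it was at 4.39, 26.7 and 10.04 against 9.57, 27.2 and 17.3. PRKAR2B was higher in members of each HLS ewe and lower in those of each LLS ewe, and did not pass. B4GALT6 was lower in members of each LLS ewe, but in HLS2 also, at 2.11 against 2.44 CPM. On the lower side IGFBP3 was at 193, 298 and 268 CPM in LLS members against 169, 82.0 and 106. In HLS it was at 43.9, 353 and 77.0 against 38.1, 342 and 85.8. The low SDS was lower in members of every ewe, and none of these passed.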

How the data were processed

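The authors processed 10x 3′ libraries with Cell Ranger 5.0.0 and STAR and deposited whole UMI counts per gene and barcode. The genome build was not given in the sources used here. Counts came from 6 ewes, 1 library each, with 43329214 to 75549906 UMI per library. The members, classes and gene lists were chosen with earlier results of these data known. Genes listed by identifier were named from RefSeq. Counts were summed per ewe and state and tested with edgeR 4.0.16 (filterByExpr, TMM, quasi-likelihood, ewe as a block), in ewes with at least 10 members; DESeq2 1.42.0 was an alternative. Shares were compared over ewes with exact permutation or sign-flip tests. Barcodes near simulated doublets (2 per barcode, 0.8% expected per 1000 barcodes, 30 components) were kept and removed in an alternative. Named genes were the 10 largest rises and falls outside the phase lists, changed alike in every ewe and with a mean of at least 20 CPM. Between groups they were 3 of the smallest p each way. Tested on simulated data, the comparison of states recovered 79.6% of 2-fold changes among 13151 genes. The ewe was the replicate. No value from the study's own tables was used.

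HLS and LLS ewes share the numbers 1 to 3 in the labels. Deviations of same-numbered ewes correlated at −0.10, −0.15 and 0.38, so the numbers were not used as pairs.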

Additional observations from a re-analysis of the deposited data

Results flagged for a closer look

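Over 30 series of ewe values (list medians, class differences and genes per barcode), 3 had a ewe far from the other 5. The arterial class difference, 1 of these series, had values from 3 ewes, too few for it to be flagged. How many chance alone would mark was not tested. The median log2 difference of the capillary list between members and comparison barcodes was −1.44 in HLS3 and −0.06 to −0.57 in the other ewes. That of the arterial list was −1.25 in HLS2 and −0.28 to −0.59 elsewhere. That of the ribosomal protein genes was 0.0565 in HLS3 and −0.18 to −0.29 elsewhere.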

How the results depend on the processing

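Settings were changed 1 at a time, except that HLS2 and LLS1 were also left out together and thinning to 5000 UMI came with a new membership call and an endothelial minimum of 2 UMI. Higher and lower gene counts between members and comparison barcodes were 1713 and 1701 with no replicate block and 981 and 587 in the capillary class alone, a fit chosen after seeing the data in which 1400 calls were shared with the same direction. The replicate block on ewe numbers between HLS and LLS gave 0 calls each way. Without a filter on low counts, 2 genes were higher in HLS members, and the interaction gave 77 higher and 1 lower. Leaving out 1 ewe moved HLS minus LLS in the share of members between −3.12 and 1.55 points (0.458 without HLS1), and leaving out HLS2 and LLS1 together gave 0.867. Genes lower in HLS members then ranged from 0 to 1. The tip class difference reversed to 0.643 points at 5000 to 20000 UMI and 0.463 with at least 5 UMI for a class, and was −1.42 thinned to 5000 UMI.

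In the capillary class alone, list medians were 2.22 (S phase), −0.20 (tip), −0.25 (lymphatic), −0.24 (Notch), −0.46 (quiescence), 0.15 (G1 drivers), 0.44 (nucleotide synthesis), −0.18 (basement membrane), −0.29 (junction), −0.28 (immediate early), −0.35 (hypoxia), −0.25 (hormone receptors) and 0.19 (oxidative phosphorylation). At 5000 to 20000 UMI they were 2.33 (S phase), −0.41 (lymphatic), 0.27 (G1 drivers) and −0.42 (hypoxia, also −0.42 without scaling factors). Without HLS2 and LLS1 they were 2.25 (S phase) and −1.09 (quiescence), and the hormone receptors had −1.37 with doublet-like barcodes removed. Leaving out 1 ewe gave 2.39 to 2.60 (S phase), −0.17 to 0.26 (lymphatic, below 0 without HLS3 or LLS3) and −0.54 to −0.38 (hypoxia). Genes that reversed in the capillary class were COL15A1 (−0.10), COL4A1 (−0.25), COL4A2 (−0.27), DLL4 (0.0404), HSPG2 (−0.10), JUP (−0.0548), LAMA4 (−0.17), LAMB1 (−0.0941), LAMC1 (−0.0432), NID1 (−0.0125), NID2 (−0.0736), RBL2 (0.0464) and SPARC (−0.20). That fit holds fewer barcodes, genes and ewes, and the cause of each change was not tested. Depth limits the smallest member sums, LLS2 with 42 and HLS1 with 62 members.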

Other observations

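The same 6 cell cycle genes were read in the other cells of these ovaries, as levels with no test. Of barcodes in which DCN led, the stromal gate, 3.24% (LLS2) to 14.3% (LLS3) had at least 3 of the 6 detected. Of barcodes in which FST led, the granulosa gate, 17.2% (HLS1) to 28.3% (LLS2) did, from 29 to 200 barcodes per ewe. Of those in which PTPRC led, between 1 of 37 (HLS1) and 6 of 60 (HLS2) did. LLS3, with the highest stromal share, had 6.40% in endothelium, and LLS1, with the highest endothelial share of 12.2%, had 3.56% in stroma. Median depth differed between these gates and ewes, from 3797 to 15200 UMI, and its part was not tested.

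MCAM, an adhesion molecule of pericytes that endothelial cells also express, was the perivascular marker that rose in members, by 0.68 ± 0.21 on the log2 scale in 5 of 6 ewes (edgeR, adjusted p = 0.0242), while RGS5, PDGFRB and the others tested did not pass. The call was lost without HLS1 (0.62) and without LLS3 (0.44).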
